A study of Gallus gallus with 8 samples.

Results

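The distal end of chicken chromosome Z, from 70 Mb on (galGal6), was examined in peak lists of Nrf2 CUT&Tag on the liver of broilers (Gallus gallus). All peaks on Z with a start at or above 70 Mb were taken from 8 deposited lists and merged where they overlapped or touched. This gave 1116 regions out of 30246 in the genome, built from 3392 of 66669 peaks, and the last of these peaks ended at Z:82527096. The titles place 4 lists in a group PT and 4 in a group HT. The HT samples are labelled with high temperature as treatment. For PT the labels conflict: phloretin, a polyphenol of apples, is named as treatment, the description says normal, and the protocol again names high temperature. HT and PT are thus compared as groups of lists, and the treatment of the PT birds is left unstated. Strain, age and sex of the birds are not in the labels, nor do they say whether each sample is a bird of its own.

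In CUT&Tag an antibody brings a transposase to the DNA beside a bound protein, and a peak marks a stretch where the tagged fragments pile up. Nrf2 is a leucine zipper transcription factor held back by KEAP1. When released, it pairs with small MAF proteins at antioxidant response elements and raises antioxidant and detoxification genes. Male birds are ZZ and females ZW. The distal long arm of the chicken Z is known for a block of heterochromatin and a long tandem array of amplified genes expressed in testis. In such an array short reads can match several copies, so that the position of a peak depends on how the aligner places them. That setting is not given in the sources used here. Genes at the positions below are not named, because no annotation of galGal6 was used.

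The lists carry no read counts, so the depth of each sample is unknown. They held 5120 to 7302 peaks in PT and 9437 to 11141 in HT, each with a minimum score of about 40. Many peaks have the same first and last base in lists of 1 group: on distal Z, 18.2% to 49.0% of the peaks of a PT list and 44.5% to 55.2% of those of an HT list had ends found in no other list. The p-values below compare these lists only, and their spread may be technical. Unless stated otherwise, each test was an exact two-sided permutation test of the group means over 70 relabellings, whose smallest possible p is 0.0286. Tests with 1 list left out have fewer relabellings and the same smallest p.

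Distal Z consisted of long crowded stretches beside sparser ones. Along 100 kb windows, runs of 2 or more windows with at least 5 merged regions each marked 3 stretches, a division chosen after the data were seen. The first, here called block A, reached from 73.6 to 78.8 Mb and held 820 regions, or 73.5% of all on distal Z, with 7 to 22 regions in every window. The second, block B, reached from 80.3 to 81.2 Mb and held 154 regions, 9 to 23 per window. The third, the tip, began at 82.3 Mb, ran to the last peak and held 31 regions. The other 6.2 Mb held 111 regions, or 17.9 per Mb, against 158 per Mb in block A, 171 in block B and 137 in the tip. For scale, the first 70 Mb of Z held 1425 regions, so the sparse windows are sparse only beside the crowded stretches. The longest stretch with no region was Z:72585094-72928818, 344 kb long, followed by Z:79365453-79600725 between the blocks.

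**Figure D1:**
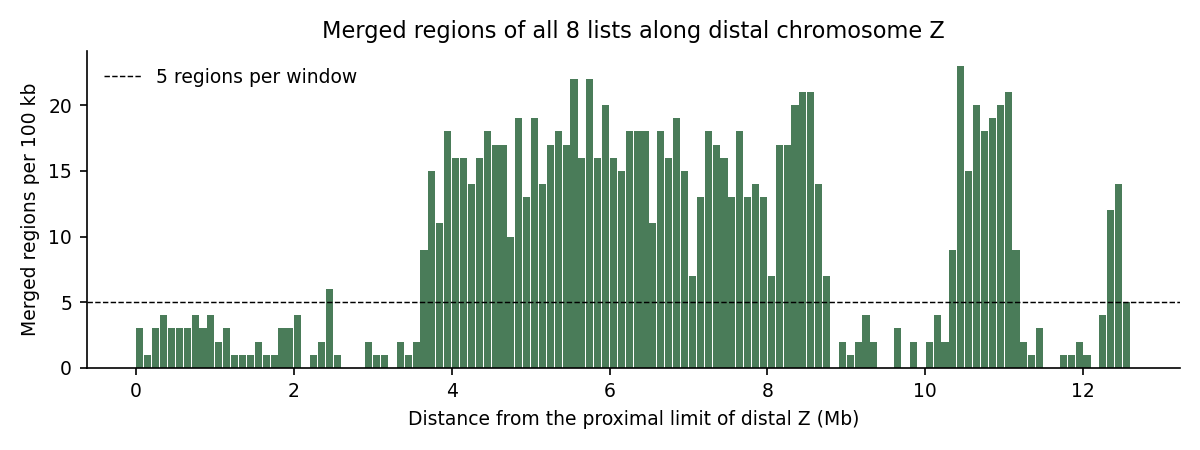
Number of merged regions of all 8 lists (y axis) in each 100 kb window of distal chromosome Z, by distance in Mb from the proximal limit of distal Z (x axis). The dashed line marks 5 regions per window; the crowded stretches hold 7 to 22, 9 to 23 and 5 to 14 regions per window, and the other windows 0 to 6.

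In both groups the crowded bins of distal Z were among the densest of the genome. In the 1 Mb bin from 76 to 77 Mb the PT lists 1 to 4 held 52, 45, 48 and 45 peaks and the HT lists 98, 100, 86 and 97. The median bin of the genome, among 1293 bins with a peak, held 3 to 5 peaks in PT and 5 to 7 in HT. The bin from 76 to 77 Mb ranked 2nd to 5th of all bins in the PT lists and 1st to 3rd in the HT lists. In the neighbouring bin from 75 to 76 Mb the PT lists held 43, 43, 48 and 34 peaks and the HT lists 100, 91, 97 and 90, and it was the densest of the genome in HT lists 1 and 3. The fewest peaks lay from 71 to 72 Mb in PT (0, 0, 2 and 2) and from 72 to 73 Mb in HT (4, 4, 3 and 6). Between the blocks, from 79 to 80 Mb, there were 4, 1, 2 and 1 peaks in PT and 5, 3, 6 and 5 in HT.

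All 4 HT lists held more peaks than all 4 PT lists in 10 of the 13 bins. Over the genome that was so in 34.3% of bins, and the opposite in 4.10%. The exact permutation p of 0.0286 in these 10 bins became 0.0743 when adjusted by Benjamini-Hochberg over all 1293 bins, so none passed. Over the genome 0 bins passed by this test, and 497 had an unadjusted exact permutation p under 0.05. Groups overlapped from 72 to 73, from 79 to 80 and from 82 to 83 Mb. In the last of these bins, which holds the tip, the PT lists had 15, 13, 13 and 12 peaks and the HT lists 16, 19, 16 and 13.

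The lists also differ in length. As a percent of each list's peaks, 2 of the 13 bins were higher in all HT lists, those from 71 to 72 and from 80 to 81 Mb, against 16.2% of bins over the genome. The bin from 82 to 83 Mb was lower in all HT lists, at 0.157 ± 0.0272% of peaks against 0.211 ± 0.0377% (SD, n = 4 lists each), where 16.3% of all bins were lower. The first share is near the background and is no result about distal Z. Without PT list 1, PT list 2 or HT list 4 in turn it was 5 of 13, and without HT list 1 it was 4. Genome-wide shares with a list left out are not given here, so those counts have no background. The count of bins lower in HT rests on a single bin. With the 5120 highest-scoring peaks of every list, 5 of the 13 bins were higher in all HT lists, against 10.9% of 1278 bins over the genome.

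**Figure D2:**
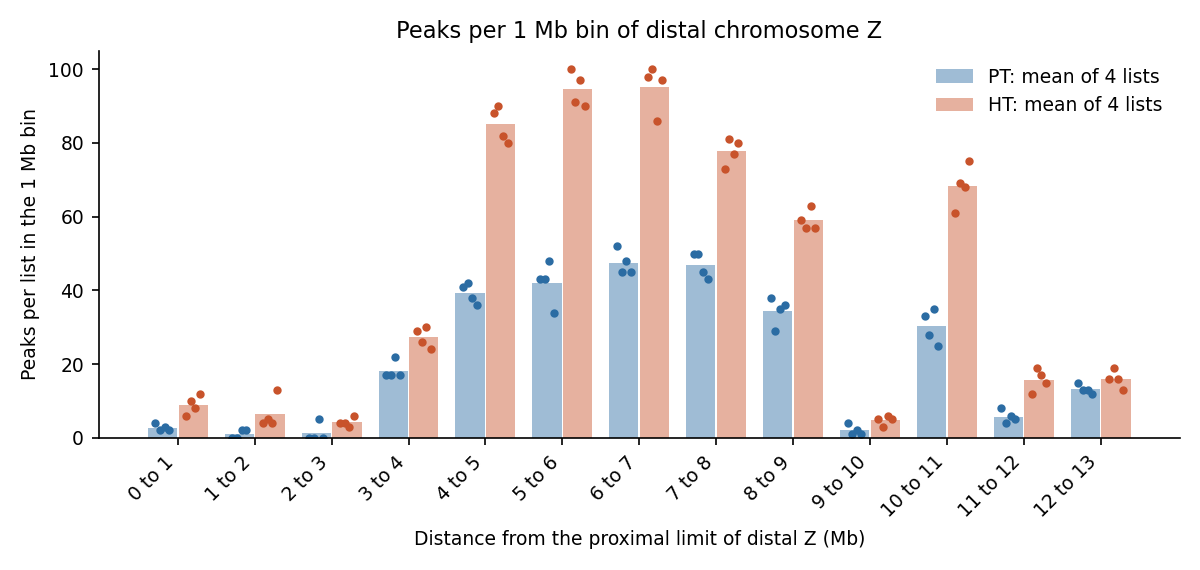
Peaks per list (y axis) in each 1 Mb bin of distal chromosome Z, by distance in Mb from its proximal limit (x axis); bars are means of 4 lists and points single lists. HT points lie above all PT points in 10 of 13 bins, and the groups overlap in the bin farthest from the proximal limit and in 2 sparse bins.

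In all, the PT lists held 305, 274, 302 and 258 peaks on distal Z and the HT lists 555, 574, 557 and 567. The groups did not overlap, and the HT mean was 1.98 times the PT mean (exact permutation p = 0.0286, adjusted p = 0.0381 over 8 measures). As a share of the list the groups overlapped: 4.70%, 5.35%, 4.14% and 3.89% of peaks in PT against 5.65%, 5.35%, 5.90% and 5.09% in HT (exact permutation p = 0.0857, adjusted p = 0.0980). With 5120 peaks from every list the share was 6.36% in HT and 4.13% in PT (exact permutation p = 0.0286).

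The excess of HT peaks was smaller on distal Z than on the rest of Z. The percent of a list's Z peaks that lay at or above 70 Mb was 63.1, 68.3, 55.9 and 67.0 in PT and 52.7, 48.9, 52.4 and 46.9 in HT, without overlap (exact permutation p = 0.0286, adjusted p = 0.0381). HT minus PT was -13.4 percentage points, against -5.12 with 5120 peaks per list (exact permutation p = 0.200) and 1.96 among peaks with ends found in no other list (exact permutation p = 0.743). The W chromosome, which only females carry, moved in the opposite direction, with 79, 78, 78 and 75 peaks in the PT lists and 40, 48, 48 and 46 in the HT lists. The part of the birds' sex in the Z values was not tested.

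The peaks of each zone were counted as well, and the ratios of the blocks were not tested against each other. Block A held 241, 226, 235 and 211 peaks in PT and 441, 442, 430 and 426 in HT, a ratio of 1.905. Block B held 39, 32, 39 and 28 in PT and 72, 81, 82 and 85 in HT, a ratio of 2.32. The sparse windows held 13, 6, 18 and 9 in PT and 27, 33, 32 and 44 in HT, a ratio of 2.96, without overlap of the groups. In the tip the groups overlapped, with 12, 10, 10 and 10 peaks in PT and 15, 18, 13 and 12 in HT. The tip took 3.69 ± 0.282% of the distal peaks of a PT list and 2.57 ± 0.447% of those of an HT list (SD, n = 4 lists each; exact permutation p = 0.0286, adjusted p = 0.0317 over 20 tests added after the data were seen). Most of these added tests stood at the smallest possible p, so the adjustment could raise it only to 0.0317. The adjusted values thus give little protection for tests chosen after the data were seen.

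Peaks on distal Z were wider in HT, and the gap was many times that on the rest of Z. Median widths were 435, 437.5, 457.5 and 469 bp in the PT lists and 649, 638.5, 639 and 637 bp in the HT lists. The difference of 191 bp had an exact permutation p of 0.0286 (adjusted p = 0.0381). On Z below 70 Mb the medians were 489, 494, 496.5 and 496 bp in PT and 509.5, 504, 509 and 502 bp in HT. PT peaks were thus 27.0 to 56.5 bp narrower on distal Z than on the rest of Z, list by list, and HT peaks 130 to 139.5 bp wider. That contrast between the parts of Z differed between the groups by 179 bp (exact permutation p = 0.0286, adjusted p = 0.0317 over the 20 added tests).

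Distal peaks of 1000 bp or more were several times as frequent in HT. Of the distal peaks of an HT list, 20.7% to 23.0% had that width, against 4.01% to 4.64% in PT. The same share for the rest of Z or the genome is not given here. Together the distal peaks covered 408, 428, 415 and 426 kb per HT list and 151, 132, 156 and 132 kb per PT list, 2.93 times as much in HT. Covered length on the rest of Z is not given here. Peaks there averaged 167.5 per PT list and 561.5 per HT list, 3.35 times as many. The higher cover in HT is thus not shown to be particular to distal Z. Inside block A the distal peaks of a list covered 6.21% to 6.42% of the sequence in HT and 1.93% to 2.23% in PT. The width difference was not seen everywhere on distal Z. In the tip the list medians overlapped, at 821 to 1177 bp in PT and 1022 to 1133 bp in HT, as did those of the sparse windows, at 436 to 521.5 bp and 462 to 528 bp. In block A they were 424 to 457 bp in PT and 653.5 to 678 bp in HT, and in block B 415 to 480.5 bp and 586.5 to 621 bp.

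The same order was found within 1 range of score percentile and in regions shared by all lists. The percentile is taken within each list, so scores and ranks were not matched between the groups. Among peaks with a score between the 40th and the 60th percentile of their own list, 41 to 62 per PT list and 77 to 93 per HT list lay on distal Z. Their median width was 407 to 470 bp in PT and 560 to 647 bp in HT. Peaks of the same score range elsewhere in the genome had the opposite order, at 468 to 499.5 bp in PT and 420.5 to 433 bp in HT. In the 61 regions that all 8 lists held, the median length covered per list was 475, 441, 513 and 464 bp in PT and 888, 922, 933 and 927 bp in HT. The HT mean was the wider in 57 of these regions and the PT mean in 4. Widths in the regions of all 8 lists elsewhere in the genome are not given here, so this count has no background.

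Distal peaks also ranked higher within HT lists than within PT lists. The score, as the authors' caller gave it, is used here only as a percentile within its list. The median distal peak stood at the 41.1, 40.2, 42.0 and 45.1 percentile of the PT lists and at the 61.04, 59.98, 56.47 and 61.53 percentile of the HT lists (exact permutation p = 0.0286, adjusted p = 0.0381). On the rest of Z the medians were 48.2 to 56.7 in PT and 45.4 to 49.6 in HT. Distal peaks thus stood below the rest of Z in every PT list and above it in every HT list, and the contrast differed by 23.6 percentile points (exact permutation p = 0.0286, adjusted p = 0.0317 over the 20 added tests). With 5120 peaks from every list, ranked anew, the medians were 47.1 in PT and 55.5 in HT (exact permutation p = 0.143), so the call did not hold there. Of the distal peaks of a list, 10.6% to 13.2% in HT and 2.19% to 3.49% in PT were among its highest-scoring 10% of peaks.

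**Figure D3:**
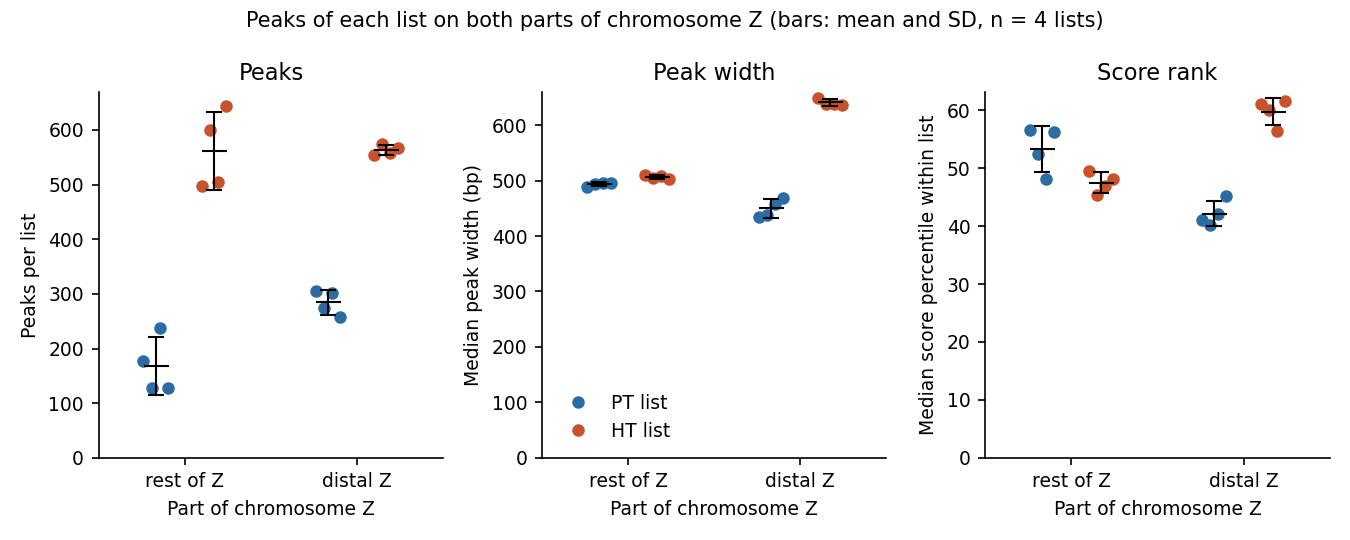
Peaks per list, median peak width in bp and median within-list score percentile (y axes) for the rest of Z and distal Z (x axes), with 1 point per list and bars for the mean and SD of 4 lists. On distal Z the widths lie between 435 and 469 bp in PT and between 637 and 649 bp in HT, while on the rest of Z all lie between 489 and 509.5 bp.

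Most regions were found in 1 group only, as over the genome, but the share found in both was higher. Of the 1116 regions, 652 (58.4%) were found in HT lists only, 284 (25.4%) in PT lists only and 180 (16.1%) in both. Over all 30246 regions these shares were 57.0%, 36.2% and 6.81%. Regions in every HT list and in none of PT numbered 236, or 21.1%, against 4234 regions, or 14%, over the genome. Regions in every PT list and in none of HT numbered 76, or 6.81%, against 6.83% over the genome, a share at the background. All 8 lists held 61 regions, or 5.47%, against 2.41% over the genome and 0.982% on the rest of Z. The part of the higher density of regions in these shares was not tested. Regions found in 1 list numbered 359, or 32.2%, against 55.9% over the genome. The shares above are of all regions, so fewer regions of 1 list leave more room for the other kinds. Counting only the 346 regions complete in HT, that is held by its 4 lists, 110 (31.8%) had a PT peak too. Over the genome it was 21.1%. For the 166 complete in PT, 90 (54.2%) had an HT peak, against 34.2% over the genome. On this base, regions complete in 1 group and absent from the other were less frequent than over the genome, for both groups.

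Most regions held by every list of a group included lists with the same peak ends. In 541 of the 1116 regions no 2 lists shared peak ends, and there 33 were held by all 4 HT lists and no PT list, 2 by all 4 PT lists and no HT list and 1 by all 8. A region of 1 list cannot share ends, so it always passes this filter, and a region of many lists passes less easily. The genome-wide shares under this filter are not given here, so these counts are no result about distal Z. Between pairs of lists of opposite groups 0 single-peak regions had identical ends, on distal Z and on the rest of Z alike. Within PT 54.5% to 76.8% of such regions on distal Z had identical ends, and within HT 34.1% to 44.4%, against 58.0% to 78.7% within HT on the rest of Z. The Jaccard index, the bases covered by both lists over those covered by either, averaged 0.538 for pairs of PT lists, 0.581 for pairs of HT lists and 0.0903 for mixed pairs. On the rest of Z the averages were lower, at 0.396, 0.453 and 0.0672.

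**Figure D4:**
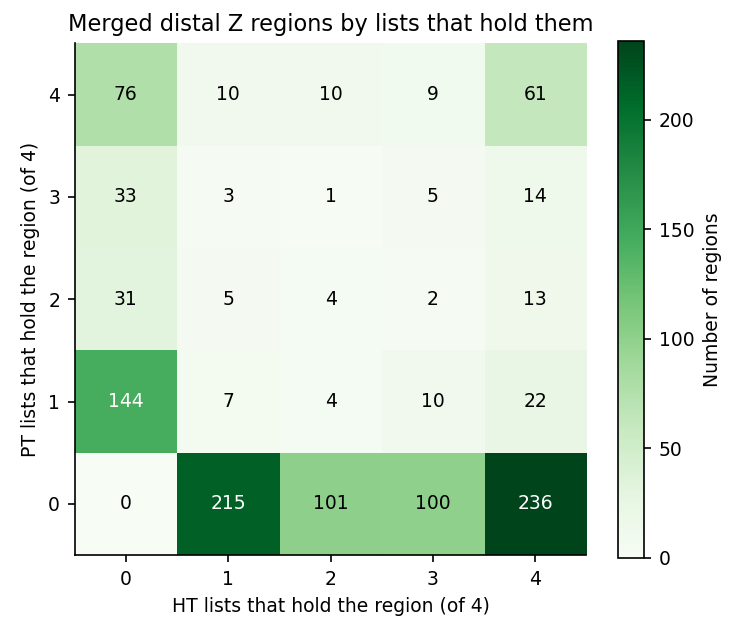
Number of merged distal Z regions held by each number of HT lists (x axis) and PT lists (y axis). The cells at the corners hold 236 regions of all 4 HT lists and no PT list, 76 of all 4 PT lists and no HT list, and 61 of all 8 lists.

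Block A held 73.5% of all distal Z regions, and so most regions of each kind. In it lay 54 of the 61 of all 8 lists, 182 of the 236 of HT only and 66 of the 76 of PT only. The highest-ranking regions of each kind, described next, lay in it at like shares. Of the 10 such regions held by all 8 lists, all were in block A and were 683 to 2734 bp wide. The first was Z:75000754-75002063, at the 89.5, 87.0, 90.8 and 91.0 percentile of the PT lists and the 95.70, 94.96, 96.53 and 96.54 percentile of the HT lists. All 4 PT lists gave it the same peak of 354 bp, whereas the HT peaks were 965, 1310, 965 and 965 bp long. It was followed by Z:77444217-77445957, with peaks of 1027 to 1044 bp in PT and 1153 to 1741 bp in HT. In Z:76471982-76474715, the widest of the 10, the PT peaks covered 354 to 796 bp and the HT peaks 2086 to 2734 bp. The opposite order was seen in Z:78381664-78382346, with 557 to 653 bp in PT and 399 to 597 bp in HT.

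Of the 10 regions with the highest mean percentile among those of all 4 HT lists and no PT list, 9 were in block A and 1 in block B. They were 459 to 1598 bp wide, and 4 of them had 1 pair of ends throughout HT. The highest, Z:75802289-75803886, stood at the 98.3, 98.5, 98.6 and 98.7 percentile of the HT lists. Next but 1 was Z:76081878-76082338, a peak of 461 bp with the same ends in all 4 HT lists. The fourth was Z:80740260-80740718 in block B.

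Among regions of all 4 PT lists and no HT list, 8 of the 10 with the highest mean percentile were in block A and 2 in block B. The first, Z:80721093-80721589, stood at the 95.9, 95.5, 97.2 and 76.9 percentile, with a peak of 222 bp in lists 1, 2 and 3 and of 497 bp in list 4. Regions of 279 bp made up 3 of the 10, at Z:73615353-73615631, Z:73700831-73701109 and Z:73721908-73722186, all at the proximal edge of block A.

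The widest region of distal Z was at its outer end. Z:82523082-82527096 spanned 4015 bp and held 1 peak in each PT list, of 2848, 2848, 3923 and 3923 bp, and 1 in HT list 2, of 2802 bp. It stood at the 89.6 to 94.0 percentile of the PT lists and at the 55.0 percentile of HT list 2. The next widest, Z:78497550-78500543 and Z:77639887-77642826, lay in block A and were found in 3 and 4 HT lists and in no PT list.

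Successive peaks lay closer together in HT, which also had more of them. The median distance between starts was 16289, 17194, 16568 and 18176 bp in the PT lists and 9284, 9696, 9206 and 9822 bp in the HT lists (exact permutation p = 0.0286, adjusted p = 0.0381). With 258 distal peaks from every list, HT minus PT was -619.5 bp (exact permutation p = 0.371). Over all of distal Z the coefficient of variation of the distances, the SD divided by the mean, was 2.55 to 4.30 in PT and 2.40 to 3.10 in HT (exact permutation p = 0.143).

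Inside block A, which was chosen for having no sparse window and so lacks long gaps, the coefficient of variation was 0.926, 0.904, 0.906 and 0.922 in PT and 0.844, 0.808, 0.903 and 0.840 in HT. On the rest of Z, with its long gaps, it was 1.18 to 1.26 in PT and 1.04 to 1.15 in HT, so the values of block A and of the rest of Z cannot be compared directly. Few successive peaks started within 1 kb of each other: 1.33% to 2.08% in PT and 1.17% to 2.05% in HT. The middle range of the distances, from the 25th to the 75th percentile, still reached from 7629.5 bp at the lowest to 32758 bp at the highest over the PT lists and from 5480.0 to 16152 bp over the HT lists, so the peaks did not stand at 1 fixed step.

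A search for a repeated step gave a weak value near 44 kb that depended on the zone, the windows and the peaks taken. The autocorrelation, which compares the covered share of 1 kb windows with that of windows a given lag away, was computed for lags up to 100 kb and read above 5 kb, as a description without a test. In block A the highest value of the group mean was at a lag of 44 kb in both groups, 0.0295 in PT and 0.0473 in HT. By list the highest lag was 44, 100, 96 and 81 kb in PT and 44, 43, 43 and 43 kb in HT. On the rest of Z the values at 44 kb were 0.0117 in PT and 0.0183 in HT, while those of the highest lags, 8 and 18 kb, were 0.109 and 0.0813. The next highest lags of block A were 81 kb in PT, at 0.0238, and 43 and 69 kb in HT, both at 0.0402. Over all of distal Z the highest lag was 6 kb in PT, at 0.0493, and 44 kb in HT, at 0.0883. The median over the lags above 5 kb was 0.0214 in PT and 0.0507 in HT there, and -0.000960 and 0.00155 in block A. Heights on distal Z thus start from a higher level, which also differs between the groups, and cannot be compared directly. On distal Z windows of 500 bp gave 43.5 kb in both groups, and the highest-scoring 50% of each list gave 28 kb in PT and 69 kb in HT.

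**Figure D5:**
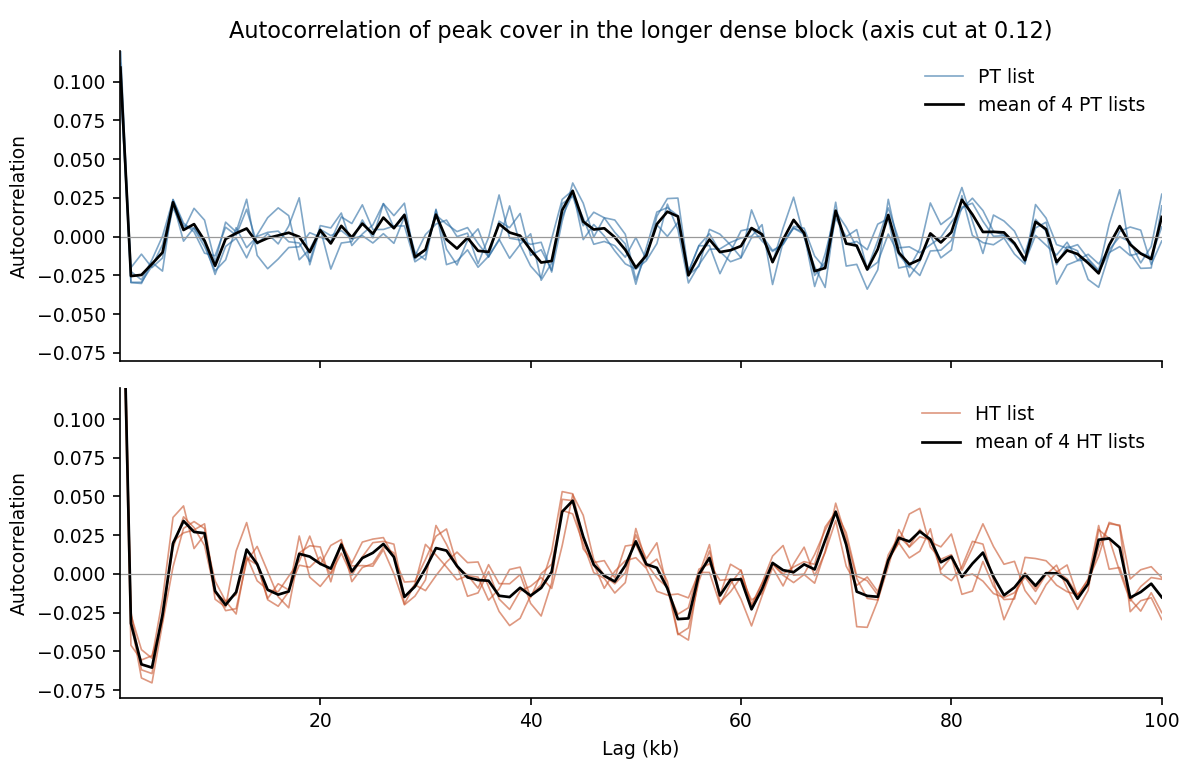
Autocorrelation of the covered share of 1 kb windows (y axis, cut at 0.12) against the lag in kb (x axis) in block A, with 1 coloured line per list and a black line for the mean of 4 lists. Above 5 kb both means are highest at 44 kb, at 0.0295 in PT and 0.0473 in HT, but other lags come near, such as 0.0238 at 81 kb in PT and 0.0402 at 69 kb in HT.

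Distances between all regions, not only neighbours, were also counted. For this the regions were taken per group, so their numbers differ slightly from those of the merge of all lists. Among 471 regions found in at least 3 HT lists, 48 pairs lay 43 to 44 kb apart, the highest of 95 distance classes of 1 kb, with a mean of 33.3 ± 5.22 pairs per class (SD over classes). Among 223 regions of at least 3 PT lists, 12 pairs did, at rank 3 of the 95 classes, with a mean of 7.05 ± 2.62. The next HT class was 50 kb, with 44 pairs, and the highest PT classes were 5 and 21 kb, with 13 pairs each. At the double step, 86 and 87 kb, there were 31 and 24 pairs in HT and 4 and 6 in PT, all below the mean of their classes. Of the pairs 43 to 44 kb apart, 41 in HT and all 12 in PT lay within block A. In HT 6 chains of 3 regions at such steps were found, as at Z:77715287-77715745, Z:77758861-77759705 and Z:77802114-77803397. Another of the 6 overlaps this chain, from Z:77758861-77759705 to Z:77845392-77846667. Chains at other steps are not given here, so the chain counts have no background. PT had 1 chain, from Z:75465806-75466362 over Z:75509342-75510172 to Z:75553394-75553677.

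At a few places peaks of equal width recurred, in some cases at the same step. At the proximal edge of block A all 4 PT lists held peaks of 279 bp starting at Z:73615353, Z:73636908, Z:73700831 and Z:73721908, which are 21555, 63923 and 21077 bp apart. A peak of 532 bp started 6039 bp after the first of these in PT lists 2, 3 and 4, and another 6039 bp after the second in all 4 PT lists. This pair of widths thus recurred 21555 bp further on. Their scores were of like rank, at the 79.3 to 90.3 percentile of the lists. HT lists had no peak with these ends, but lists of opposite groups shared no ends in single-peak regions anywhere on Z. Identical ends thus do not tell whether HT peaks overlap these places. The regions at Z:73615353, Z:73642947, Z:73700831 and Z:73721908 were held by no HT list. For the other starts this is not given here.

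A further step was shared by both groups. Peaks of 318 bp and 457 bp in PT, at Z:75715455-75715772 and Z:75723846-75724302, each had a peak of the same width 30221 bp further on, in 2 and 3 lists. A peak of 538 bp in HT, at Z:75716531-75717068, had one of the same width at that same distance in 2 lists. In HT a peak of 422 bp at Z:73652910-73653331 recurred 42599 bp further on in 3 lists. Other distances were held in as many lists or more. A peak of 386 bp at Z:76999535-76999920 recurred 25785 bp further on in all 4 PT lists. A peak of 519 bp at Z:80375337-80375855 recurred 87789 bp further on in 3 HT lists. These places were chosen after their values were seen. Equal widths as such were less frequent on distal Z than elsewhere in every list but PT list 4, where 0.980% of pairs within 100 kb on distal Z and 0.899% elsewhere had the same width. Over the lists, of pairs within 100 kb, 0.871% to 1.11% in PT and 0.109% to 0.182% in HT had the same width, against 0.899% to 1.72% and 0.638% to 0.827% on the other chromosomes and the rest of Z. The shares on distal Z rest on only 9 to 12 pairs of equal width per PT list and 5 to 8 per HT list. These differences were not tested.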

How the data were processed

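Nrf2 CUT&Tag was measured in 8 broiler liver samples. Named in the submitters' processing notes are galGal6, Bowtie2 2.2.4 and cutadapt 1.9.2. Each deposited list gives chromosome, start, end, a peak name beginning with MACS and the score of the authors' caller, with its scale, version, settings, control and handling of duplicates not stated. Starts were raised by 1 base. An overlap of 1 bp counted a region as held by a list. Group means were compared by an exact permutation test, with Benjamini-Hochberg adjustment over 8 measures, over 20 added tests or over 1293 bins. Regions named were the 10 of each kind (all 8 lists, all 4 HT and no PT list, all 4 PT and no HT list) with the highest mean within-list score percentile, the 3 widest, the fullest and emptiest bins and the longest gap. The members and lists were chosen with earlier results of these data known. The code was tested on simulated lists. Alternatives were the strongest 50% of each list, 5120 peaks per list, a start of 72 Mb, no peaks under 260 bp, a replicate block, each list left out, 500 bp merging, a 50% cover, 0.5 Mb bins and 500 bp windows; block A alone and peaks or regions without shared ends were added after the data were seen. The work was done in Python 3.11.15 (pandas 2.3.3, numpy 2.4.6, matplotlib 3.10.9).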

Additional observations from a re-analysis of the deposited data

Results flagged for a closer look

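The difference between HT and PT itself differed between distal Z and the rest of Z in 3 measures. The percent of Z peaks on distal Z was -13.4 points for HT minus PT, the width contrast with the rest of Z by 179 bp and the score contrast by 23.6 percentile points, each with an exact permutation p of 0.0286. Within distal Z, the share of peaks in the tip was -1.12 points for HT minus PT (exact permutation p = 0.0286). The tip counts themselves were not lower in HT, at a mean of 14.5 peaks per list against 10.5 in PT, with overlap of the groups. HT list 1, with a median width of 649 bp against 637 to 639 bp in the other HT lists, stood apart by Dixon's test, with a gap of 0.833 of the range, past the 95% critical value. Such a result arises by chance in about 1 of 20 groups, and 16 groups were tested.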

How the results depend on the processing

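Of 191 alternative values, 146 kept their direction and side of the threshold or their size, 94 of these among the 104 that leave out 1 list. The causes of the other changes were not tested. All values are HT minus PT unless a group is named.

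With the strongest 50% of each list, the percent of the list on distal Z differed by 2.51 points, past the threshold, and the percent of Z peaks by -3.18, no longer past it. The coefficient of variation of spacing turned to 0.631, the regions of HT only, PT only and all 8 lists numbered 154, 34 and 18, and the highest HT autocorrelation was 0.0597 at a lag of 69 kb, no longer at 44 kb (PT 28 kb, against 6 kb in the full lists). With 5120 peaks per list these differences were 2.23 and -5.12 points, the score percentile 8.36 (no longer past the threshold), HT-only regions 133 and all-8 regions 23, and 38.5% of bins were higher in HT as counts and as percents. From 72 Mb on the coefficient of variation turned to 0.351 and the HT autocorrelation was 0.0809. Peaks with ends in no other list gave 2.69 points of the list, 1.96 of Z (reversed) and a coefficient turned to 1.01. Regions without shared ends numbered 33 in HT only, 2 in PT only and 1 in all 8, and a cover of 50% left 21 in all 8. Genome-wide shares of regions under these cuts and filters are not given here. These region counts thus do not tell whether the differences from the genome-wide shares persist. Equal numbers of distal peaks gave a spacing of -619.5 bp, no longer past the threshold. Block A alone gave a coefficient of -0.0660, past the threshold, and autocorrelations of 0.0295 in PT and 0.0473 in HT. Windows of 500 bp gave 0.0403 and 0.0728, both at 43.5 kb.

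Whether the replicate numbers pair the samples is not known. Same-numbered lists correlated at -0.204 to 0.152, and 1 of 4 correlated best with its own number, which cannot settle it. A replicate block, tested by sign flips of the differences between same-numbered lists, cannot go below an exact p of 0.125. It thus says nothing on stability. Its differences were 278.5 peaks, -13.4 points of Z, 276 kb covered, 191 bp of width, -7555 bp of spacing and 17.7 percentile points. Leaving out 1 list gave -15.9 to -11.8 points of Z, no longer past the threshold in some cases (exact permutation p up to 0.0571), 0.769 to 1.26 points of the list, a coefficient of -1.16 to -0.577 and 15.4% to 38.5% of bins higher in HT as percents. The genome-wide share of bins with a list left out is not given here, so that range has no background.

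Read depth, read placement in repeats and the sex of the birds are not known here, and lists of a group share peak ends, so leaving out 1 list is a weak check.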
